A study of Mus musculus and Homo sapiens with 14 samples.

Results

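The 5 genes Cybb, Cyba, Ncf1, Ncf4 and Rac2 of the phagocyte NADPH oxidase were followed. They were chosen for the known composition of the enzyme, with earlier results of these data known. Genes were matched by symbol, in upper case in the human table, where all 5 were found among 19166 rows. In each mouse table all 5 were found among 20682 rows. Messenger RNA had been measured by polyA-selected sequencing in 14 libraries of acute myeloid leukemia cells, in 7 groups of 2. RN2c cells, a mouse leukemia line that carries Cas9, were taken on day 2 after lentiviral delivery of a guide RNA against Sik3 (guides e1 and e3), against Mef2c (guides 1 and 2) or against the Rosa26 locus as control (sgRosa26). RN2 cells, the mouse leukemia line with no Cas9 in its label, received 350 nM of the salt-inducible kinase inhibitor YKL-05-099 or 0.1% DMSO for 2 hr; their titles also carry the word empty, which the cell line label does not explain. MOLM-13 cells, a human leukemia line with an MLL-AF9 fusion and here with an empty vector, received 250 nM of YKL-05-099 or 0.1% DMSO for 2 hr. The knockout libraries came from infected populations, and the labels give neither a selection step nor the share of edited cells. Mef2c guides 1 and 2 are read from titles that end in the same numbers as the sgRosa26 titles. These numbers may instead mark replicates, so a difference between Mef2c guides may be one between replicates.

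The NADPH oxidase of phagocytes moves electrons from NADPH in the cytosol across the membrane to oxygen, which makes superoxide for the killing of microbes. Its membrane part is cytochrome b558, a pair of the catalytic subunit gp91phox (Cybb) and its stabilizing partner p22phox (Cyba). On activation, the cytosolic organizer p47phox (Ncf1), the adaptor p40phox (Ncf4) and the GTPase Rac2 join it. Neutrophils and monocytes both carry the enzyme, its messages build up as myeloid precursors mature, and loss of Cybb, Cyba, Ncf1 or Ncf4 in people causes chronic granulomatous disease.

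Total reads recovered from the deposited values ranged from 13961461 to 24275290 per library. Sik3 fell to 1219 and 1169 normalized reads in sgSik3 libraries, against 1939 and 1878 in sgRosa26 libraries, which is 0.626 of the control level (limma adjusted p = 5.72e-06). Mef2c fell to 3892 and 4021 in sgMef2c libraries, against 8395 and 8369 in sgRosa26 libraries, or 0.472 of the control level (limma adjusted p = 7.97e-05). Both knockouts were set against the same 2 sgRosa26 libraries, so the knockout comparisons share their controls, and since no label states that a group's libraries were grown separately, p-values measure the spread between these libraries only. All values are from bulk RNA, in which more cells of a type and more RNA per cell cannot be told apart.

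The oxidase genes were higher in both knockouts. In sgSik3 cells 5 of 5 rose, by 1.09- to 1.64-fold, in a comparison where 23.9% of 10934 tested genes were called higher and 47.8% in either direction. In sgMef2c cells 4 of 5 rose, by 1.30- to 1.49-fold, where 16.3% of 10956 tested genes were called higher and 31.4% in either direction. Ncf4 and Cybb had the largest changes in sgSik3 cells, Rac2 and Ncf4 in sgMef2c cells, and Ncf1 the smallest in both. After 2 hr of YKL-05-099 no oxidase gene passed the test in RN2 or in MOLM-13.

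**Figure D1:**
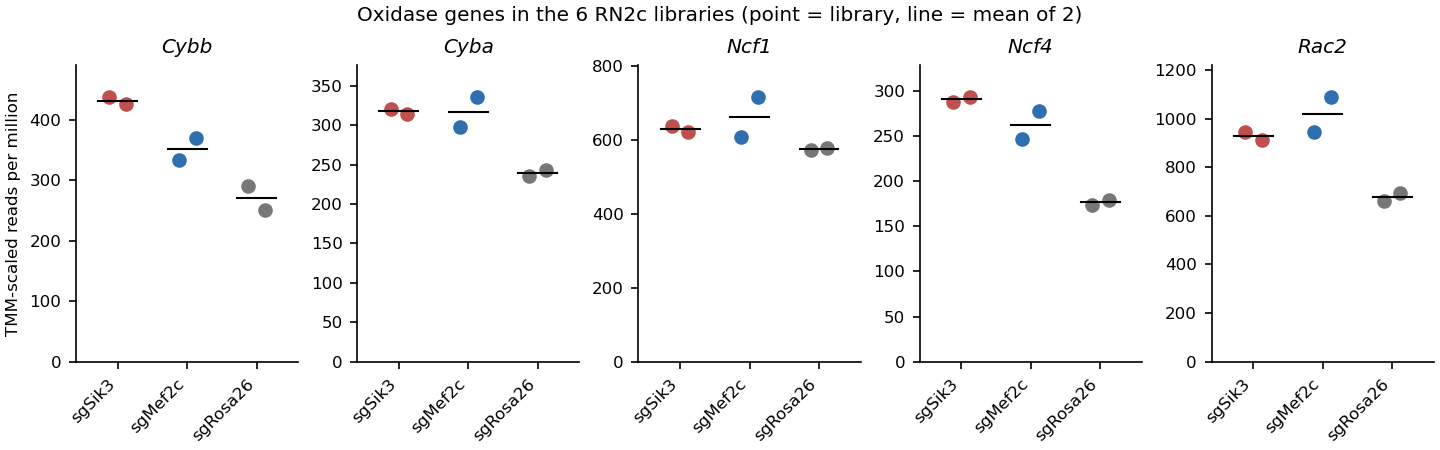
TMM-scaled RPM (vertical axis, from 0) of each oxidase gene in the 6 RN2c libraries, by group, with a point for each library and a line at the mean of 2. Every knockout library lies above both sgRosa26 libraries for each of the 5 genes, and the gap relative to the level is narrowest for Ncf1.

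The membrane pair is described first. Cybb lies on the minus strand at X:9435252-9487771 (GRCm38, protein coding). RefSeq promoter windows (GRCm38.p6), 250 bases before to 50 bases after the annotated start, were matched for 3 of the 5 genes, Cybb, Cyba and Ncf1. Those of Cybb and Ncf1 are shown because Cybb was among the genes that changed most and Ncf1 changed least. Letters of motifs that are known for myeloid promoters are in capitals: GAGGAA for PU.1, the composite motif of PU.1 with an interferon regulatory factor, TTGCNNAA for C/EBP and CCAAT, searched on both strands.
Cybb, chrX:9469275-9469574, minus strand: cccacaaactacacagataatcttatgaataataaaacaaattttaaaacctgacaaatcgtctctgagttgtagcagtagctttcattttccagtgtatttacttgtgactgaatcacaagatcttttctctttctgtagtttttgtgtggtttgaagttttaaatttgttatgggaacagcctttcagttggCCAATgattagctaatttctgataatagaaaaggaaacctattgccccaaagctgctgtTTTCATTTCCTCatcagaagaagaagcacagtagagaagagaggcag
Ncf1, chr5:134229576-134229875, minus strand: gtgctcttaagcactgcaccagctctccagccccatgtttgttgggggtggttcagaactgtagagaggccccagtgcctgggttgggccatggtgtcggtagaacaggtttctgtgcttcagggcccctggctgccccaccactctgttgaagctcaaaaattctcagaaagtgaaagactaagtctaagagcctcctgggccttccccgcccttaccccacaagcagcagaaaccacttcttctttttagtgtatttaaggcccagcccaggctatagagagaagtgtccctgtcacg
The Cybb window lies inside the gene span given above, so its RefSeq start is not the end of that span. This window held 3 matches, at positions counted from the RefSeq start. CCAAT stood at -56 to -52 from the annotated start on the gene's own strand. The composite motif at 4 to 13 and GAGGAA at 10 to 15 were read on the opposite strand, where they overlap. Among 32544 mouse promoter windows of 300 bases, 37.4% held CCAAT, 2.73% the composite motif, 28.1% GAGGAA and 10.8% TTGCNNAA. The Cyba and Ncf1 windows held none of these letters.

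Cyba lies on the minus strand of chromosome 8, from 122424776 to 122432930 (GRCm38, protein coding). It overlaps Gm20388, a gene on the other strand, and because the strand setting of the counting is not given in the sources used here, reads of the overlap cannot be assigned with certainty.

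In the deposited table of the Sik3 knockout, Cybb had 9074 and 8818 normalized reads with guides e1 and e3, against 6040 and 5211 in the sgRosa26 libraries. Both sgSik3 libraries lay above both controls, and the controls differed from each other by more than the guides did. The log2 change was 0.67 (SE 0.060, limma adjusted p = 2.7e-05), or 1.59-fold. Cyba had 6646 and 6514 normalized reads in sgSik3 libraries, against 4899 and 5057 in sgRosa26 libraries. The groups did not overlap, and the 1.32-fold change (log2 0.40, SE 0.034, limma adjusted p = 1.84e-05) was smaller than that of its partner.

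In the table of the Mef2c knockout, Cybb had 7253 and 8088 normalized reads with guides 1 and 2, against 6349 and 5463 in the sgRosa26 libraries. The groups did not overlap, and guide 1 was the closer of the guides to the controls. The change was 1.30-fold (log2 0.38, SE 0.080, limma adjusted p = 0.0122). Cyba had 6475 and 7332 normalized reads in sgMef2c libraries, against 5150 and 5302 in sgRosa26 libraries. Both guides were above both controls, guide 2 more so, and the change was 1.32-fold (log2 0.40, SE 0.061, limma adjusted p = 0.00363). Without the mean-variance trend of limma, neither Cybb (adjusted p = 0.0881) nor Cyba (adjusted p = 0.0521) passed in sgMef2c cells.

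Of the cytosolic subunits Ncf1 and Ncf4, Ncf4 changed more. Ncf4 encodes p40phox, which binds a phosphoinositide of phagosome membranes, and lies at 15:78244801-78262580 on the plus strand. It had 5975 and 6075 normalized reads in sgSik3 libraries, against 3620 and 3736 in sgRosa26 libraries. The 2 guides were nearly equal and far above both controls, with a log2 change of 0.71 (SE 0.034, limma adjusted p = 1.17e-06), or 1.64-fold. In the Mef2c table Ncf4 had 5366 and 6076 normalized reads in sgMef2c libraries, against 3805 and 3917 in sgRosa26 libraries. The groups did not overlap, and the change was 1.48-fold (log2 0.56, SE 0.061, limma adjusted p = 0.00106).

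Ncf1 encodes p47phox, which is phosphorylated on activation and carries the cytosolic complex to the membrane. It lies at 5:134220053-134229625 on the minus strand and overlaps Gtf2ird2 on the other strand. Ncf1 had 13261 and 12870 normalized reads in sgSik3 libraries, against 11933 and 12023 in sgRosa26 libraries. The groups did not overlap, but the rise was 1.09-fold (log2 0.13, SE 0.031, limma adjusted p = 0.0099). The call was lost without guide e1 (log2 0.10, limma adjusted p = 0.102) and without the mean-variance trend (limma adjusted p = 0.0874). In the Mef2c table Ncf1 had 13254 and 15654 normalized reads in sgMef2c libraries, against 12544 and 12605 in sgRosa26 libraries. Guide 2 was well above the controls and guide 1 just above them. The log2 difference of 0.20 (SE 0.073) did not pass the limma test (adjusted p = 0.0832, interval of the fold 1.02 to 1.29 at 95% before adjustment). It passed without guide 1 (log2 0.32, limma adjusted p = 0.00158) and with DESeq2 (adjusted p = 0.0315), and without guide 2 the log2 difference was 0.076 (limma adjusted p = 0.275).

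Rac2, the hematopoietic Rac GTPase that takes part in switching on electron flow, lies at 15:78559167-78572783 on the minus strand. It had 19587 and 18898 normalized reads in sgSik3 libraries, against 13776 and 14411 in sgRosa26 libraries. Both guides lay above both controls, with a change of 1.37-fold (log2 0.45, SE 0.036, limma adjusted p = 1.45e-05). In the Mef2c table Rac2 had 20542 and 23764 normalized reads in sgMef2c libraries, against 14481 and 15109 in sgRosa26 libraries. Guide 2 was again the higher, both were above the controls, and the change was 1.49-fold (log2 0.58, SE 0.069, limma adjusted p = 0.0015). Groups that did not overlap, with both knockout libraries higher, were common in these tables: 37.4% of tested genes in the sgSik3 comparison and 35.5% in the sgMef2c comparison, beside 37.8% and 35% with both knockout libraries lower.

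Among all tested genes, ordered by log2 change, 4.40% had a larger value than Ncf4 in the sgSik3 comparison. The share was 4.92% for Cybb, 9.42% for Rac2, 11.2% for Cyba and 31.3% for Ncf1. In the sgMef2c comparison 5.29% of genes had a larger value than Rac2, 5.48% than Ncf4, 9.04% than Cyba, 9.62% than Cybb and 20.1% than Ncf1. The median log2 change of the 5 genes was 0.45 in sgSik3 cells and 0.40 in sgMef2c cells, beside a median over all tested genes of -0.00054 and 0.00016 in the same order of comparisons.

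Levels were compared between genes as RPKM, reads divided by the total reads of the library and by kilobases of exon, with no TMM factor. In sgSik3 cells Cyba was highest at 423 ± 3.9 (SD, n = 2), followed by Rac2 at 303 ± 6.2, Ncf1 at 217 ± 3.5, Ncf4 at 197 ± 3.3 and Cybb at 90.1 ± 1.4. In sgMef2c cells the order was the same, with Cyba at 422 ± 31, Rac2 at 332 ± 29, Ncf1 at 228 ± 23, Ncf4 at 178 ± 13 and Cybb at 73.5 ± 4.6. In sgRosa26 cells Cyba stood at 327 ± 5.3, Rac2 at 227 ± 5.8, Ncf1 at 203 ± 0.19, Ncf4 at 123 ± 2.0 and Cybb at 57.9 ± 6.4. Neighbours in these orders did not overlap between libraries in any of the 3 groups, so the catalytic subunit had the lowest message per length of the 5 throughout. Exon lengths are unions over the protein-coding transcripts of the GENCODE basic annotation, so a level per length depends on which transcripts are used.

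Because the genes changed by different amounts, their ratios per length differed between groups, as the plot of ratios shows. Ncf4 stood at 0.908 ± 0.030 of Ncf1 in sgSik3 cells and 0.781 ± 0.023 in sgMef2c cells, against 0.604 ± 0.010 in sgRosa26 cells (SD, n = 2 each). Both knockouts were above the controls with no overlap. Cybb over Ncf1 was 0.415 ± 0.00040 in sgSik3 cells and 0.323 ± 0.013 in sgMef2c cells, against 0.285 ± 0.031 in sgRosa26 cells. Rac2 over Rac1, its ubiquitous relative, was 4.48 ± 0.035 in sgSik3 cells and 5.02 ± 0.51 in sgMef2c cells, against 3.72 ± 0.14 in sgRosa26 cells. The membrane pair differed between the knockouts: Cybb over Cyba was 0.213 ± 0.0013 in sgSik3 cells and 0.174 ± 0.0019 in sgMef2c cells, against 0.177 ± 0.022 in sgRosa26 cells, whose libraries at 0.193 and 0.161 lie on both sides of the sgMef2c value. These ratios were not tested.

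**Figure D2:**
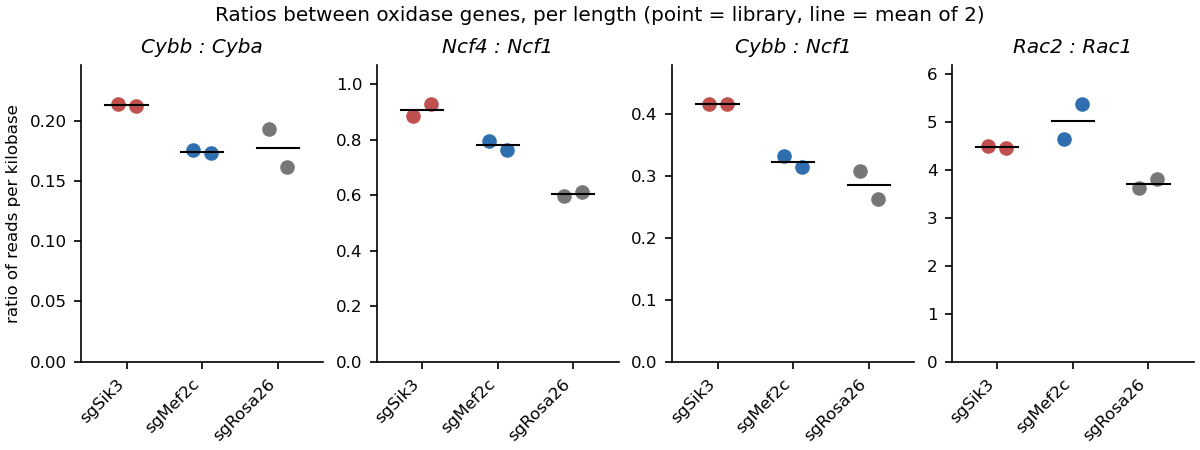
Ratios of reads per kilobase between pairs of oxidase genes (vertical axis, from 0) in the 6 RN2c libraries, by group, with a point for each library and a line at the mean of 2. Ncf4 over Ncf1, Cybb over Ncf1 and Rac2 over Rac1 are higher in all 4 knockout libraries than in both sgRosa26 libraries. For Cybb over Ncf1 the lower sgMef2c library, at 0.313, is close to the higher sgRosa26 library, at 0.307. Cybb over Cyba is 0.213 in sgSik3, 0.174 in sgMef2c and 0.177 in sgRosa26 cells.

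Of 6 partners of the enzyme, 4 rose and 1 fell in each knockout. Over all tested genes, 23.9% were called higher and 23.9% lower in sgSik3 cells, and 16.3% and 15.1% in sgMef2c cells. The largest change was that of Hvcn1, the voltage-gated proton channel that lets protons leave the cell during the burst. It had 587 and 592 normalized reads in sgSik3 libraries, against 171 and 176 in sgRosa26 libraries (log2 1.76, SE 0.082, limma adjusted p = 9.68e-07). In the Mef2c table it had 638 and 825 normalized reads in sgMef2c libraries, against 180 and 184 in sgRosa26 libraries (log2 1.99, SE 0.13, limma adjusted p = 0.000294). All 4 knockout libraries were more than 3 times the control mean, yet Hvcn1 remained low, at 9.41 RPKM in sgSik3 cells and 11.1 in sgMef2c cells, against 2.83 in sgRosa26 cells.

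BC017643, an older symbol of Cybc1, whose product is needed for a stable cytochrome b558, rose by log2 0.22 in sgSik3 cells (limma adjusted p = 0.00114) and by 0.23 in sgMef2c cells (limma adjusted p = 0.00692). Rac1 rose by log2 0.18 in sgSik3 cells (limma adjusted p = 0.0017) and by 0.15 in sgMef2c cells (limma adjusted p = 0.0197), a call lost without sgRosa26 replicate 1 or 2 or Mef2c guide 2 (limma adjusted p = 0.0793, 0.100 and 0.0626).

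The genes of 2 GDP-dissociation inhibitors, which hold Rac in the cytosol, moved in opposite directions. Arhgdib, the hematopoietic one, rose by log2 0.41 in sgSik3 cells (limma adjusted p = 0.000338) and by 0.47 in sgMef2c cells (limma adjusted p = 0.00528). Arhgdia, the ubiquitous one, changed by log2 -0.23 in sgSik3 cells (limma adjusted p = 3e-04) and by -0.18 in sgMef2c cells (limma adjusted p = 0.0173), both falls; the second call was lost without sgRosa26 replicate 1 or 2 or Mef2c guide 2 (limma adjusted p = 0.103, 0.0616 and 0.0641). Rap1a, a GTPase found with the cytochrome, had log2 differences of 0.13 in sgSik3 cells (limma adjusted p = 0.0532) and 0.14 in sgMef2c cells (limma adjusted p = 0.0881), which did not pass.

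**Figure D3:**
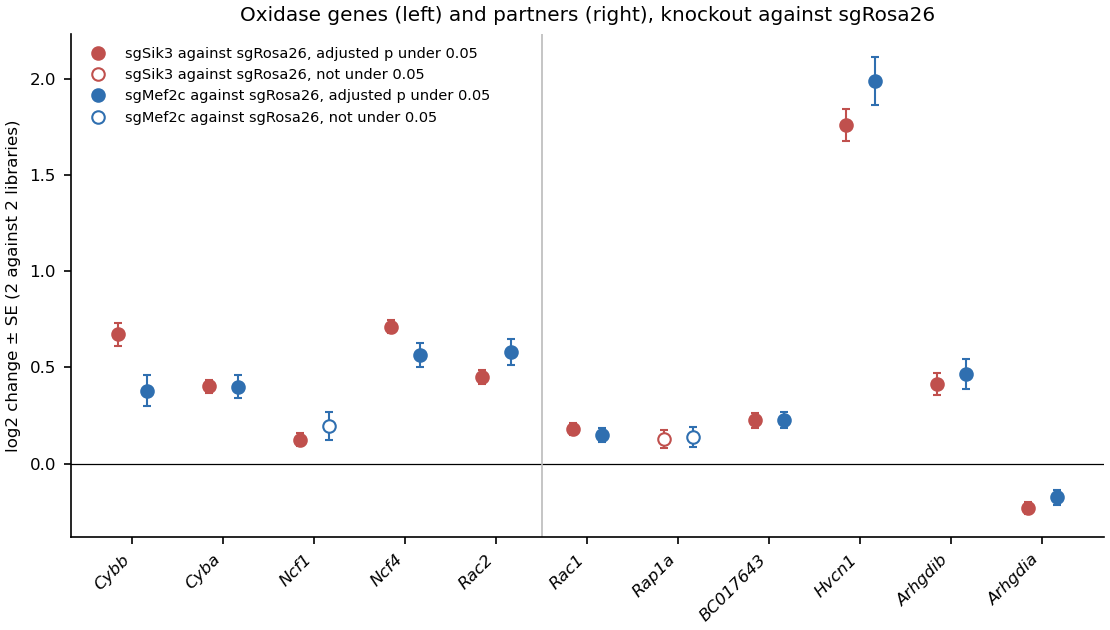
Log2 change against sgRosa26 with its SE (vertical axis) for the 5 oxidase genes and 6 partners, sgSik3 to the left of sgMef2c for each gene, 2 libraries a group, filled where the limma adjusted p was under 0.05. Hvcn1 stands apart at 1.76 and 1.99, Arhgdia is below 0 in both knockouts, and the 5 oxidase genes lie between 0.13 and 0.71.

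Other NADPH oxidases were nearly absent from these cells. Of 9 genes for Nox1, Nox3, Nox4, the Duox enzymes and their partner proteins, the recovered reads summed to 46 and 38 in sgSik3 libraries and 45 and 41 in sgMef2c libraries, against 36 and 45 in sgRosa26 libraries. Noxo1, an organizer of Nox1, was the single one high enough to test and did not pass, with log2 differences of 0.044 in sgSik3 cells and 0.099 in sgMef2c cells (limma adjusted p = 0.897 and 0.774).

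Signaling genes that lead to oxidase activation rose more often than they fell. Of 20 tested, 11 rose and 1 fell in sgSik3 cells (median log2 0.19), where 23.9% of all tested genes rose and 23.9% fell. In sgMef2c cells 10 rose and 2 fell (median log2 0.13), where 16.3% of all tested genes rose and 15.1% fell. Those that rose in sgSik3 cells included Prkcb (log2 0.59, limma adjusted p = 1.39e-05), a protein kinase C that phosphorylates p47phox. The receptor-proximal kinase Syk (0.45), Prkcd (0.36) and the phosphoinositide kinase subunit Pik3cg (0.36) rose there as well. In sgMef2c cells Prkcb rose by log2 0.67 (limma adjusted p = 0.000918), the Rac exchange factor Tiam1 by 0.29, Irak4 by 0.26 and Syk by 0.26. The gene called lower in both was Pik3r5, a regulatory subunit of the same phosphoinositide kinase, with log2 -0.30 in sgSik3 cells (limma adjusted p = 0.0121) and -0.33 in sgMef2c cells (limma adjusted p = 0.0336). Without sgRosa26 replicate 1 these were -0.20 in sgSik3 cells and -0.22 in sgMef2c cells. The call was lost without guide e1 or e3 in sgSik3 cells (limma adjusted p = 0.0847 and 0.054), and without sgRosa26 replicate 1 or Mef2c guide 1 in sgMef2c cells (limma adjusted p = 0.154 and 0.115). Btk was also called lower in sgMef2c cells (log2 -0.12, limma adjusted p = 0.0463), but not without any 1 of the 4 libraries (limma adjusted p from 0.0965 to 0.187). Pik3r5 and Btk were named after their values were seen.

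Transcription factors known to act on oxidase promoters moved in both directions. Of 11 tested, 6 rose and 1 fell in sgSik3 cells and 3 rose and 2 fell in sgMef2c cells. The shares over all tested genes were 23.9% higher and 23.9% lower in sgSik3 cells, and 16.3% and 15.1% in sgMef2c cells. Cebpe, a C/EBP factor of granulocyte maturation, had 5968 and 5710 normalized reads in sgSik3 libraries, against 2567 and 2850 in sgRosa26 libraries (log2 1.11, limma adjusted p = 9.54e-07). It had 6163 and 7620 normalized reads in sgMef2c libraries, against 2698 and 2988 in sgRosa26 libraries (log2 1.27, limma adjusted p = 0.000447). Spi1, which encodes PU.1, rose by log2 0.42 in sgSik3 cells and by 0.42 in sgMef2c cells (limma adjusted p = 2.17e-05 and 0.00158). Irf8, a factor of monocyte development that acts with PU.1 on Cybb, went the other way, with 1533 and 1539 normalized reads in sgSik3 libraries, against 3357 and 2638 in sgRosa26 libraries (log2 -0.95, limma adjusted p = 3.92e-05). Irf8 was also lower in sgMef2c libraries, at 1841 and 1377 normalized reads, against 3529 and 2765 in sgRosa26 libraries (log2 -0.97, limma adjusted p = 0.00393). Cux1, a repressor of Cybb in immature cells, fell by 0.16 on the log2 scale in sgMef2c cells (limma adjusted p = 0.018), a call lost without sgRosa26 replicate 1 or 2 or Mef2c guide 2 (limma adjusted p = 0.059, 0.0977 and 0.051).

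Genes that supply NADPH or handle oxidants had mixed calls. Among all tested genes, 23.9% rose and 23.9% fell in sgSik3 cells, and 16.3% rose and 15.1% fell in sgMef2c cells. Of 6 NADPH-supply genes tested, 3 rose and 1 fell in sgSik3 cells and 2 rose in sgMef2c cells. Taldo1, of the pentose phosphate pathway, rose by log2 0.30 in sgSik3 cells and 0.31 in sgMef2c cells (limma adjusted p = 8.88e-05 and 0.00258). Of 13 oxidant-handling genes, 4 rose and 6 fell in sgSik3 cells, and 2 rose and 4 fell in sgMef2c cells, with medians of -0.0093 and 0.010. The peroxidase Prdx5 rose by log2 1.00 in sgSik3 cells and 0.84 in sgMef2c cells (limma adjusted p = 1.8e-07 and 0.000918). Gsr, glutathione reductase, rose by 0.83 in sgSik3 cells and 0.62 in sgMef2c cells (limma adjusted p = 3.17e-07 and 0.000475). Prdx3 (log2 -0.51 in sgSik3 cells and -0.33 in sgMef2c cells) and Sod2 (log2 -0.33 and -0.30 in the same order) fell in both knockouts.

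The oxidase genes rose beside granulocyte genes, by smaller amounts than most of them. The list of later granulocyte genes includes those of secondary and tertiary granule proteins and of neutrophil receptors. Of 19 later granulocyte genes tested, 18 rose in sgSik3 cells with a median log2 change of 2.15, and none fell. In sgMef2c cells 15 of 18 rose and 2 fell, with a median of 2.16. Calls over all tested genes were 23.9% higher and 23.9% lower in sgSik3 cells, and 16.3% and 15.1% in sgMef2c cells. The medians of the 5 oxidase genes, 0.45 and 0.40, were closer to those of the 5 primary granule genes, at 0.34 in sgSik3 cells and 0.48 in sgMef2c cells, where 4 of 5 rose in each. S100a8, a calcium-binding protein of neutrophils, rose by log2 2.35 in sgSik3 cells (limma adjusted p = 5.5e-09) and 2.44 in sgMef2c cells (limma adjusted p = 0.000676). Olfm4, of secondary granules, rose by 2.56 in sgSik3 cells and 3.16 in sgMef2c cells (limma adjusted p = 5.5e-09 and 0.000631). Csf3r, the receptor of the granulocyte growth factor, rose by 0.91 in sgSik3 cells and 0.81 in sgMef2c cells (limma adjusted p = 1.37e-06 and 0.000577). Hp and Cxcr2, named after their values were seen, were called lower in sgMef2c cells, with log2 -0.13 and -0.52 (limma adjusted p = 0.0365 and 0.0423). Both calls were lost without sgRosa26 replicate 1 or 2 or Mef2c guide 2 (limma adjusted p from 0.115 to 0.175 for Hp and from 0.0693 to 0.213 for Cxcr2).

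Monocyte and macrophage genes went both ways. Of 13 tested, 4 rose and 5 fell in sgSik3 cells (median log2 -0.30), where 23.9% of all tested genes rose and 23.9% fell. In sgMef2c cells 2 rose and 7 fell (median log2 -0.52), where 16.3% of all tested genes rose and 15.1% fell. Cx3cr1, the fractalkine receptor, changed by log2 -2.17 in sgSik3 cells and -2.04 in sgMef2c cells (limma adjusted p = 4.15e-07 and 0.000294). Ccr2 changed by -1.62 in sgSik3 cells and -1.82 in sgMef2c cells (limma adjusted p = 5.72e-06 and 0.000771), Cd68 by -0.44 and -0.62, and Cd14 by -0.54 and -0.85, in the same order. Lyz2, a lysozyme that granulocytes also make, rose by log2 1.13 in sgSik3 cells and 0.43 in sgMef2c cells (limma adjusted p = 2.48e-07 and 0.00498). Adgre1 also rose in sgSik3 cells (log2 0.36, limma adjusted p = 0.00064) but did not pass in sgMef2c cells (log2 -0.16, limma adjusted p = 0.0835). Ly6c2 and F13a1, named after their values were seen, rose by log2 0.25 and 0.71 in sgSik3 cells (limma adjusted p = 0.000997 and 0.016). In sgMef2c cells Ly6c2 rose by 0.28 (limma adjusted p = 0.0205) and F13a1 did not pass (limma adjusted p = 0.451). With 1 library left out, F13a1 ranged from 0.52 to 0.91 in sgSik3 cells. The summed level of the 17 listed monocyte genes, in which Lyz2 weighs heavily, was 7538 and 7218 TMM-scaled RPM in sgSik3 libraries and 5085 and 5661 in sgMef2c libraries, against 4606 and 4573 in sgRosa26 libraries. The summed level of the 21 later granulocyte genes was 6607 and 6097 in sgSik3 libraries and 5447 and 10170 in sgMef2c libraries, against 1645 and 1757 in sgRosa26 libraries. The part that a changed mix of cells has in the oxidase values was not tested.

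Markers of other blood lineages were low. Lymphocyte markers summed to 10 and 10 recovered reads in sgSik3 libraries and 21 and 11 in sgMef2c libraries, against 12 and 12 in sgRosa26 libraries, with Ms4a1, Cd3e and Cd8a at 0 in all 6. Eosinophil markers summed to 276 and 287 reads in sgSik3 libraries and 347 and 346 in sgMef2c libraries, against 133 and 143 in sgRosa26 libraries. Siglecf, the single one high enough to test, rose to a mean of 284 normalized reads in sgSik3 cells, against 130 in sgRosa26 cells, and to 329 in sgMef2c cells, against 136 in sgRosa26 cells (limma adjusted p = 9.47e-05 and 0.000799), and Il5ra was at 0 in all 6. Of 3 mast cell and basophil genes tested 1 fell in each knockout, Cpa3, with log2 -1.53 in sgSik3 cells (limma adjusted p = 0.00397) and -2.22 in sgMef2c cells (limma adjusted p = 0.00887). The controls differed: the mast cell and basophil list summed to 32.3 and 34.3 TMM-scaled RPM in sgSik3 libraries and 29.0 and 21.8 in sgMef2c libraries, against 44.4 and 92.0 in sgRosa26 libraries, and without sgRosa26 replicate 2 the log2 change of Cpa3 was -0.87 in sgSik3 cells and -1.56 in sgMef2c cells. Of the erythroid and megakaryocyte genes, Itga2b rose (log2 0.50, limma adjusted p = 0.0274) and Vwf fell (log2 -0.58, limma adjusted p = 0.0178) among 3 tested in sgSik3 cells, and Vwf fell (log2 -0.95, limma adjusted p = 0.00941) among 4 tested in sgMef2c cells. Itga2b was at log2 0.31 without sgRosa26 replicate 1 (limma adjusted p = 0.121), and its call was also lost without guide e1 or e3 (limma adjusted p = 0.113 and 0.129). The calls of Vwf were lost without sgRosa26 replicate 2, in sgSik3 cells (limma adjusted p = 0.063, and 0.129 without guide e1) and in sgMef2c cells (limma adjusted p = 0.0527). Pf4 and Fcer1a were at 0 in all 6 libraries. The calls in these lists stand beside 23.9% of all tested genes called higher and 23.9% lower in sgSik3 cells. In sgMef2c cells these shares were 16.3% and 15.1%.

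**Figure D4:**
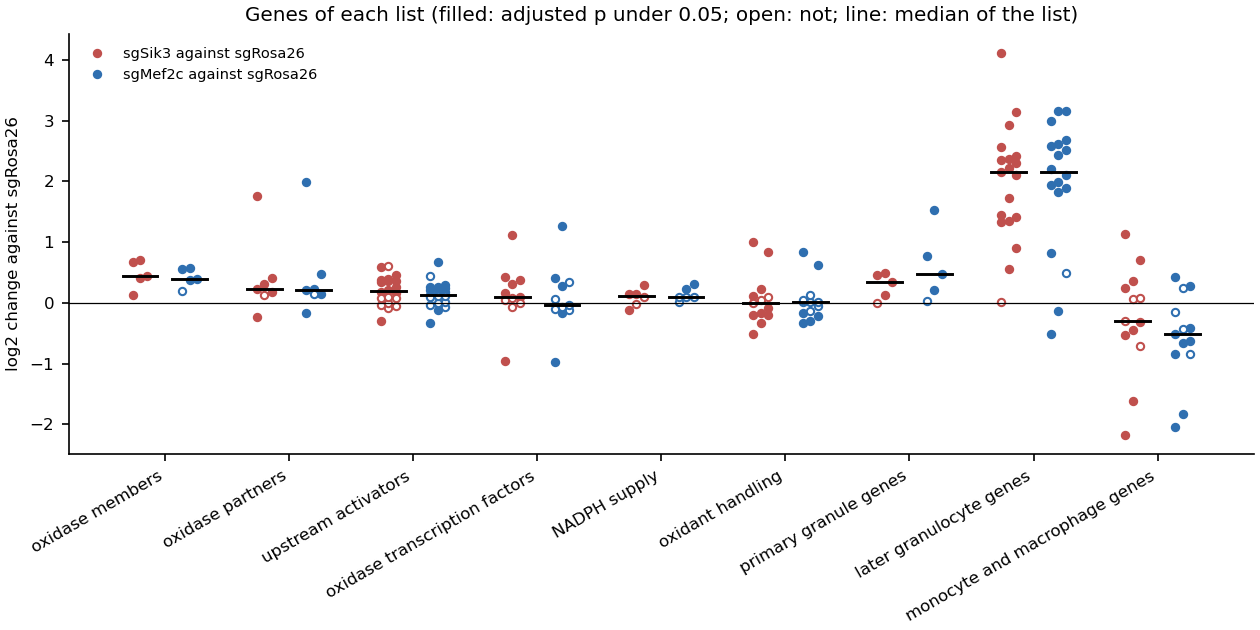
Log2 change against sgRosa26 (vertical axis) of every tested gene in 9 gene lists (horizontal axis), sgSik3 to the left of sgMef2c, filled where the limma adjusted p was under 0.05, with a line at the median of each list. The later granulocyte genes have medians of 2.15 and 2.16, whereas the oxidase genes have medians of 0.45 and 0.40.

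Guide by guide, every one of the 5 oxidase genes lay above the sgRosa26 mean in each of the 4 knockout libraries. Of 10952 tested genes, 5558 lay above that mean with guide e1 and 5567 with guide e3. With Mef2c guide 1 these were 5671 genes, and with Mef2c guide 2 they were 5484. For the 5 oxidase genes the median difference from the sgRosa26 mean was taken on the scale of log2(TMM-scaled RPM + 1). It was 0.48 with guide e1, 0.43 with guide e3, 0.32 with Mef2c guide 1 and 0.49 with Mef2c guide 2. That scale differs from the one of the limma values and gives smaller changes for genes of low level, so these medians are not set beside those of the other gene lists. Mef2c guide 2 gave higher values than guide 1 for all 5 oxidase genes. The 2 Sik3 guides differed little, with e1 slightly above e3 for all but Ncf4. With 4 libraries these medians were not related to each other by a test.

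The knockouts were also set against each other, with edgeR on the recovered reads of all 6 RN2c libraries. Of the 5 oxidase genes, 1 differed, Cybb, in a comparison where 9.44% of 10952 tested genes were called, 3.7% as higher and 5.74% as lower. Cybb had 334 and 371 TMM-scaled RPM (reads scaled to library size) in sgMef2c libraries, against 438 and 426 in sgSik3 libraries. The log2 difference of Cybb was -0.30 (SE 0.068, edgeR adjusted p = 0.0254). The call was lost without guide e1 (edgeR adjusted p = 0.216), without guide e3 (0.192) and without Mef2c guide 1 (0.115), with log2 values from -0.32 to -0.23.

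Ncf4 had 247 and 278 TMM-scaled RPM in sgMef2c libraries, against 288 and 293 in sgSik3 libraries (log2 -0.15, SE 0.053, edgeR adjusted p = 0.0981). Rac2 had 946 and 1089 in sgMef2c libraries, against 945 and 912 in sgSik3 libraries (log2 0.12, SE 0.059, edgeR adjusted p = 0.223). Neither passed, and the 95% intervals of the fold from a limma fit on the same scaled reads were 0.831 to 0.978 for Ncf4 and 0.995 to 1.20 for Rac2, before adjustment. Ncf1, with 610 and 717 in sgMef2c libraries and 640 and 621 in sgSik3 libraries, overlapped between the groups (log2 0.066, edgeR adjusted p = 0.553, interval 0.951 to 1.16). Cyba, with 298 and 336 in sgMef2c libraries and 321 and 315 in sgSik3 libraries, also overlapped (log2 -0.010, edgeR adjusted p = 0.924, interval 0.919 to 1.08). Guide 1 weighed on several of these: without it, Ncf1 (log2 0.18, edgeR adjusted p = 0.0286) and Rac2 (log2 0.22, edgeR adjusted p = 0.0171) passed as higher in sgMef2c cells. Without Mef2c guide 2, Ncf4 passed as lower (log2 -0.24, edgeR adjusted p = 0.0118).

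In the same direct test, 5 of 13 monocyte genes were lower in sgMef2c than in sgSik3 cells and none was called higher, among them Lyz2 (log2 -0.71, edgeR adjusted p = 0.000253) and Csf1r (log2 -0.51, edgeR adjusted p = 0.00254). Without guide e1 or e3 the call of Csf1r was lost (edgeR adjusted p = 0.0804 and 0.0533). Of 5 primary granule genes 3 were higher and 1 lower, with Mpo, the myeloperoxidase that uses the oxidase's product, at log2 1.17 (edgeR adjusted p = 3.71e-05). Of 19 later granulocyte genes 1 was higher, Camp at log2 1.42 (edgeR adjusted p = 0.0286), and 6 were lower. Over all tested genes, 3.7% were called higher and 5.74% lower in sgMef2c cells. Camp was at log2 0.72 without Mef2c guide 2 and 1.92 without Mef2c guide 1, and its call was lost without guide e1 or e3 (edgeR adjusted p = 0.218 and 0.246).

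For each oxidase gene the 3 genes with the nearest pattern over the 6 RN2c libraries were found among 9627 genes, by the root mean square difference in log2(TMM-scaled RPM + 1) from the sgRosa26 mean. For Cybb these were Kif19a (0.049), Arhgef4 (0.052) and Ccng2 (0.057), and for Cyba Tnfrsf21 (0.018), Glrx (0.021) and Chst12 (0.022). Ncf1 was nearest to Stk10 (0.019), Ankrd39 (0.024) and Phf13 (0.029). Ncf4 was nearest to Pfkfb3 (0.029), Ypel5 (0.031) and Zbtb42 (0.043), and Rac2 to Treml2 (0.025), Zcwpw1 (0.034) and Dock5 (0.035). No oxidase gene was among the 3 nearest of another. The closest pair was Cyba and Rac2, with a difference of 0.11, at which Cyba held place 164 among the genes ranked for Rac2. Ncf1 and Ncf4 were the farthest pair, with a difference of 0.40.

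In RN2 cells, 2 hr of 350 nM YKL-05-099 changed none of the 5 oxidase genes by the limma test, where 0.317% of 10732 tested genes were called, 0.0373% as higher and 0.28% as lower. At an unadjusted p under 0.05 there were 786 genes, and edgeR called 30 genes. Ncf1 had 6601 and 6552 normalized reads in YKL-05-099 libraries, against 7299 and 7048 in DMSO libraries. Both treated libraries were below both controls (log2 -0.13, SE 0.035, limma adjusted p = 0.316, interval of the fold 0.868 to 0.969 before adjustment). Without DMSO replicate 2 the adjusted p of Ncf1 was 0.0397. Cybb had 2570 and 2572 in YKL-05-099 libraries, against 2838 and 2681 in DMSO libraries, again without overlap (log2 -0.10, SE 0.046, limma adjusted p = 0.684, interval 0.868 to 1.00).

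The other 3 genes had slightly higher means with the inhibitor in RN2. Ncf4 had 2423 and 2441 normalized reads in YKL-05-099 libraries, against 2300 and 2385 in DMSO libraries (log2 0.054, limma adjusted p = 0.872, interval of the fold 0.968 to 1.11). Rac2 had 10926 and 10915 in YKL-05-099 libraries, against 10494 and 10725 in DMSO libraries (log2 0.042, limma adjusted p = 0.846, interval 0.981 to 1.08). Cyba had 3283 and 3499 in YKL-05-099 libraries, against 3228 and 3349 in DMSO libraries, and its groups overlapped (log2 0.044, limma adjusted p = 0.907, interval 0.960 to 1.11). Groups without overlap were found for 18.1% of tested genes in the higher and 18.7% in the lower direction.

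Per length, the order in RN2 was the same as in RN2c. Cyba stood at 315 ± 15 RPKM in YKL-05-099 cells and 303 ± 9.2 in DMSO cells (SD, n = 2), Rac2 at 248 ± 0.77 and 239 ± 4.7, Ncf1 at 158 ± 0.22 and 170 ± 3.5, Ncf4 at 115 ± 1.0 and 110 ± 3.3, and Cybb at 37.3 ± 0.16 and 39.8 ± 1.4, with YKL-05-099 cells first each time. None of 6 partners, 5 primary granule genes and 17 later granulocyte genes tested was called. Irf8 was the single gene of the lists called in RN2, with 1837 and 1828 normalized reads in YKL-05-099 libraries, against 2443 and 2252 in DMSO libraries (log2 -0.36, limma adjusted p = 0.0236). The call of Irf8 was lost in 2 alternative runs, among them the run without the mean-variance trend.

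In MOLM-13 cells the same inhibitor at 250 nM changed none of the 5 genes, in a comparison where 0% of 11361 tested genes were called by limma. At an unadjusted p under 0.05 there were 144 genes, DESeq2 called 7 genes and edgeR called none. CYBA had 4975 and 6278 normalized reads in YKL-05-099 libraries, against 5316 and 6403 in DMSO libraries. RAC2 had 5730 and 7115 in YKL-05-099 libraries, against 5934 and 7083 in DMSO libraries. NCF4 had 2381 and 2658 in YKL-05-099 libraries, against 2376 and 2775 in DMSO libraries. In all 3, replicate 2 was above replicate 1 in both groups, and the groups overlapped.

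NCF1 had 419 and 507 normalized reads in YKL-05-099 libraries, against 441 and 455 in DMSO libraries. NCF1 has near-identical pseudogene copies in the human genome, so how its reads were assigned is uncertain. CYBB was scarce, with 124 and 117 recovered reads in YKL-05-099 libraries, against 128 and 140 in DMSO libraries. Its normalized reads were 144 and 112 in YKL-05-099 libraries, against 134 and 120 in DMSO libraries. The groups overlapped for both genes, and the limma adjusted p was 1 for each of the 5. The 95% intervals of the fold came from a fit without the replicate number as a block. They were 0.732 to 1.36 for CYBB, 0.759 to 1.21 for CYBA and 0.825 to 1.28 for NCF1. For NCF4 the interval was 0.813 to 1.18 and for RAC2 0.788 to 1.23. Changes within these bounds were not excluded with 2 libraries a group.

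**Figure D5:**
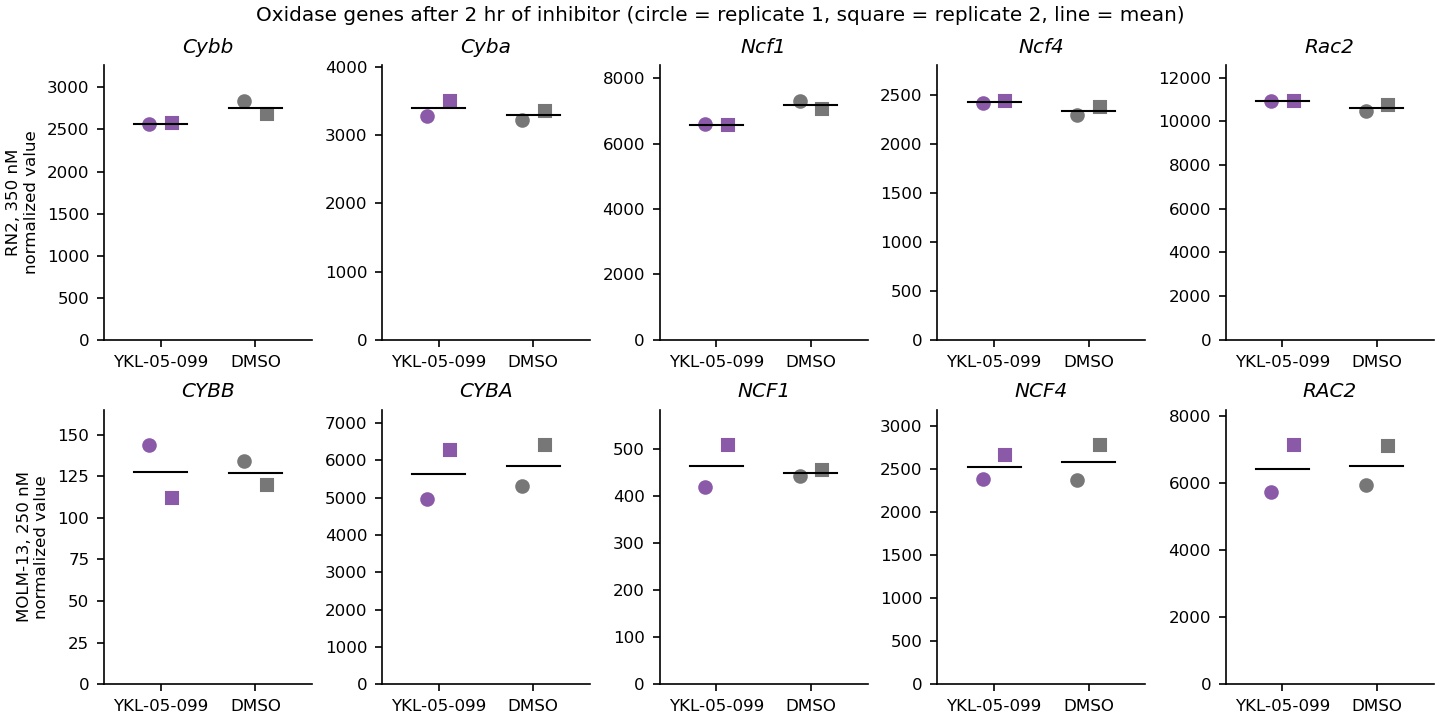
Normalized reads (vertical axis, from 0) of the oxidase genes in RN2 cells with 350 nM (top) and MOLM-13 cells with 250 nM (bottom) YKL-05-099 or DMSO for 2 hr, with a circle for replicate 1, a square for replicate 2 and a line at the mean. In RN2 Ncf1 and Cybb lie lower in both treated libraries, Ncf4 and Rac2 higher, and in MOLM-13 the groups overlap for all 5 genes.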

How the data were processed

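The deposited tables hold gene counts that the authors divided by DESeq2 size factors, a signal never below 0; alignment with HISAT2, counting with featureCounts and the builds mm10 and hg19 are named, without versions, in the submitters' processing notes. Dividing each library by its smallest value above 0 gave whole reads for 100% of values (tolerance 1e-06 reads). Values were tested as log2(value + 1) with limma 3.58.1 (mean-variance trend, mean value of at least 10, Benjamini-Hochberg threshold 0.05), within each table. Fold changes are on that scale. sgMef2c and sgSik3 were compared with edgeR 4.0.16 (quasi-likelihood test, TMM factors) on recovered reads, since their tables were scaled separately. DESeq2 1.42.0 was an alternative, in R 4.3.3. The test code was checked on simulated data. Genes and exon lengths came from the GENCODE annotation of GRCm38, and promoters from RefSeq.

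The oxidase genes, the gene lists and the tests were chosen with earlier results of these data known. All oxidase genes are reported, as are 6 partners, while some listed genes are not reported here; within each other list up to 4 genes with the lowest p were named (up to 6 in the granulocyte and monocyte lists), and genes named after their values were seen are marked as such. A list of RNA quality genes matched 0 of 5 rows in every table and was not used.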

Additional observations from a re-analysis of the deposited data

Results flagged for a closer look

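These results are given because the difference between the 2 knockouts itself passed the edgeR test; each value is the log2 difference of sgMef2c minus sgSik3, with 2 libraries a group. Cybb differed by -0.30, and 1 of the 5 oxidase genes was called, in a comparison with 9.44% of genes called.

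Among the upstream activators, the kinase genes Btk (-0.21), Syk (-0.20) and Prkcd (-0.16), the phosphoinositide kinase gene Pik3cg (-0.23) and the Rac exchange factor genes Prex1 (-0.26) and Vav3 (-0.19) were lower in sgMef2c cells. Pak1, a kinase that Rac activates, was higher (0.29). The transcription factor genes Cux1 (-0.22) and Elf1 (-0.21) and the reductase gene Gsr (-0.22) were lower. Tkt (0.24) and Pgls (0.20), of the pentose phosphate pathway, were higher.

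The primary granule genes Mpo (1.17), Prtn3 (0.47) and Elane (0.30) were higher in sgMef2c cells and Ms4a3 (-0.30) was lower. Of the later granulocyte genes, Camp (1.42) was higher, and Fpr2 (-2.47), Mmp9 (-1.23), Cxcr2 (-1.07), Mmp8 (-0.99), Cd177 (-0.81) and Hp (-0.16) were lower. The monocyte genes Lyz2 (-0.71), Mpeg1 (-0.57), Adgre1 (-0.52), Csf1r (-0.51) and Cd14 (-0.32) were lower in sgMef2c cells.

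With guide e1 left out, the calls of Mpo, Prtn3 and Lyz2 held and those of the other genes named here were lost; with guide e3 left out, Adgre1 held as well. With 1 library left out, Camp ranged from 0.72 (without Mef2c guide 2) to 1.92 (without Mef2c guide 1). Mmp9 was -1.96 without Mef2c guide 2 and -0.71 without Mef2c guide 1. Fpr2 was -3.44 without Mef2c guide 2 and -1.81 without Mef2c guide 1, where its call was also lost (edgeR adjusted p = 0.106). Cd177 was -1.18 without Mef2c guide 2 and -0.51 without Mef2c guide 1. Pak1 was 0.19 without Mef2c guide 2, where its call was lost (edgeR adjusted p = 0.0957). Mmp8 lost its call without either Mef2c guide (edgeR adjusted p = 0.145 without guide 1 and 0.0776 without guide 2).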

How the results depend on the processing

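In the knockout comparisons against sgRosa26, all 5 oxidase genes kept a positive log2 change under every alternative run (pseudocounts, filters, scaling, edgeR, DESeq2, no trend, each library left out). Without the mean-variance trend, sgMef2c gave 2 oxidase genes, 11 later granulocyte genes and 1628 genes in all past the test. For sgSik3 that run gave 4007 genes in all, against 5226 with the trend. DESeq2 called 3532 genes for sgSik3, 2255 for sgMef2c, 7 for MOLM-13 and 598 for sgMef2c against sgSik3. In RN2, 3 genes passed with no filter and 0 with no trend. With no filter, 2 oxidase genes passed between the knockouts. The cause was not tested.

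Leaving out each library in turn gave 1815 to 3138 genes for sgMef2c, 28 to 321 for RN2 (321 without DMSO replicate 2), 14 to 20 for MOLM-13 and 45 to 1163 between the knockouts (45 without guide e3, 50 without guide e1). Oxidase genes past the test ranged from 0 to 1 in RN2 and from 0 to 2 between the knockouts. Signs reversed only for log2 differences that had not passed: Cyba in RN2 (-0.0021 to 0.090); CYBB (-0.18 to 0.18), CYBA (-0.23 to 0.11), NCF1 (-0.095 to 0.18), NCF4 (-0.14 to 0.082) and RAC2 (-0.18 to 0.13) in MOLM-13; and Cyba (-0.097 to 0.072) and Ncf1 (-0.053 to 0.18) between the knockouts. CYBB was 0.0036 with edgeR and 0.0070 with DESeq2.

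Libraries with the same replicate number correlated in their deviations with r = 0.0514 in sgMef2c, 0.216 in RN2 and 0.525 in MOLM-13, and the labels do not state a pairing. With the replicate number as a block, 3905 genes passed for sgMef2c, 499 for RN2 and 290 for MOLM-13. In MOLM-13 no oxidase gene passed with the block. For sgMef2c the guide number served as the replicate number. In RN2 the block gave 1 oxidase gene, Ncf1 (limma adjusted p = 0.000584), and 1 later granulocyte gene, and in sgMef2c Ncf1 passed (limma adjusted p = 0.0115). No paired analysis was possible for sgSik3 because its guides share no numbers with the controls. With 2 libraries a group, small changes can be missed, and CYBB is limited by its low count.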
